A study of Mus musculus with 19 samples.

Results

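The genes described here encode cathepsins and proteins of the lysosome, followed through monocytes sorted from mouse bone marrow. They are 10 genes of the 50854 in the count table, a list chosen with earlier results of these data known. It holds the cathepsins Ctss, Ctsd, Ctsc, Ctsz, Ctsh and Ctsl, the lysosome-associated membrane proteins Lamp1 and Lamp2, the sphingolipid activator precursor Psap, and Cd68. All 10 had a row in the table, and 9 had reads in at least 1 library. Ctsl was listed at 0 in all 19 libraries. On GRCm38 the genes lie apart from each other, save Ctsc (chr7:88278085-88310888) and Ctsd (chr7:142375911-142388038), which share a chromosome. Ctss is at chr3:95526786-95556403, Ctsz at chr2:174427493-174439039, Ctsh at chr9:90054152-90076089 and Ctsl at chr13:64359337-64370890. Lamp1 is at chr8:13159161-13175338, Lamp2 at chrX:38401357-38456454, Psap at chr10:60277627-60302597 and Cd68 at chr11:69664213-69666153. Reads were summed over the exons of each gene.

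Lysosomes are acidic organelles in which hydrolases break down material taken up by phagocytosis and endocytosis, as well as the cell's own worn parts. Cathepsins are the lysosomal proteases, most of them cysteine proteases, with cathepsin D an aspartic protease, and they are made as inactive precursors that mature in the acidic compartment. Monocytes and macrophages are rich in lysosomes, which they use to digest microbes and to prepare antigens, and many lysosomal genes carry a CACGTG-containing promoter element that is bound by TFEB and related factors.

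All mice were female and between 8 and 12 weeks of age. They were REP mice, which carry fluorescent reporters for several chemokine receptors, including CCR1 (Clover) and CCR2 (mRuby2), so that each population was defined by its reporters and not by receptor protein. CCR1/2+ve monocytes carried the CCR1 and CCR2 reporters together, and CCR2+ve monocytes carried the CCR2 reporter alone. In the study's methods inflammation was induced by osmotic pumps that released IL-3, IL-6, GM-CSF and IFN-α for 7 days, and whether the mice labelled resting carried pumps with vehicle was not given in the sources used here. There were 4 libraries of resting CCR1/2+ve, 4 of resting CCR2+ve, 3 of inflamed CCR1/2+ve, 4 of inflamed CCR2+ve and 4 of a group labelled inflamed CCR1. The study's gate for these monocytes was CD11b+ Ly6C++ Ly6G- SiglecF-, and no gate was given in the sources used here for the inflamed CCR1 group. Nothing in the sources states that replicates were separate animals, so p-values measure the spread between these libraries.

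Each library held between 22268658 and 30502009 reads on genes. The 4 libraries labelled inflamed CCR1 stood apart from the rest and went against the cell type on their label. Among 14 monocyte marker genes, the summed level was 10408 to 15705 CPM (read counts scaled to library size) in them and 33476 to 60160.4 CPM in the other 15 libraries, and Csf1r, Ccr2, Cx3cr1 and Fcgr1 averaged 17.7, 5.81, 2.38 and 3.58 CPM. The 14 neutrophil marker genes in the table summed to 155351 to 194587 CPM in them, against 1487 to 9051 CPM elsewhere. Ccr1 itself was at 32.01 to 42.7 CPM in these libraries and at 66.6 CPM or more in every other library. On average 9 of the 14 monocyte markers were at 10 CPM or more in these libraries, and 14 of 14 in each of the other 4 groups. Their comparisons are therefore given last. Elsewhere they enter only where all 19 libraries or all 3 inflamed groups are named.

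Among the other groups, resting CCR1/2+ve libraries had a neutrophil marker sum of 5754 to 9051 CPM and resting CCR2+ve libraries 1487 to 2489 CPM. The monocyte marker sum was 33476 to 46732 CPM in the former and 49593 to 57011 CPM in the latter, and that of 13 dendritic cell markers 173 to 466 CPM against 856 to 2514 CPM. Erythroid markers summed to 57.1 to 291 CPM at rest and to no more than 3.54 CPM in inflamed CCR1/2+ve and CCR2+ve libraries. In bulk samples, fewer cells of a type and less RNA per cell cannot be told apart.

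The promoters of 2 members are shown because these genes moved furthest in opposite directions under inflammation. RefSeq promoter windows on GRCm38.p6, from 250 bases before to 50 bases after the gene start, were matched for 9 members, with no entry for Ctsh. The E-box CACGTG stood in the windows of 3 members (Lamp1, Ctsd and Ctsl), and in 7.15% of all 32851 windows and 24.1% of the 108 windows of the other lysosomal genes examined below. The longer TCACGTGA, which contains the E-box, was found in 1 member (Ctsd), in 0.974% of all windows and in 11.1% of the lysosomal ones. GAGGAAGT, a core letter sequence of PU.1 sites, was found in Ctsc and Ctss, in 3.20% of all windows and in 2.78% of the lysosomal ones. Both strands were searched, and a match describes letters only. The 70 bases before the Lamp1 start (chr8:13159091-13159160, plus strand) held 4 E-boxes, given in capitals, and the Ctsc stretch (chr7:88277920-88277959, plus strand) held the reverse complement of GAGGAAGT in capitals.
Lamp1: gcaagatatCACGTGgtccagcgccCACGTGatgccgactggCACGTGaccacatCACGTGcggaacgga
Ctsc: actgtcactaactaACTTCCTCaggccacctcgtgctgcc

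Levels differed widely between the members. Per kilobase of exon, Psap, whose product is cut into the saposins that help degrade sphingolipids, had the highest level of the 9 genes in all 5 groups. In resting CCR2+ve monocytes it was at 4242 ± 328 CPM per kb (SD, n = 4), which ranked 7 among 18618 genes, and in inflamed CCR2+ve monocytes at 6243 ± 612 CPM per kb (SD, n = 4), rank 3. Ctss, the cysteine protease that trims the invariant chain of MHC class II, followed at 2311 ± 328 CPM per kb in resting CCR2+ve monocytes, rank 12. Cd68 and Ctsz came next at 691 ± 87.4 and 637 ± 62.9 CPM per kb, a difference smaller than their SDs. Lamp1 and Ctsc were at 495 ± 51.6 and 436 ± 70.2 CPM per kb, a difference smaller than the SD of Ctsc but not that of Lamp1. Ctsh was at 191 ± 11.1 CPM per kb, and Lamp2 and Ctsd were lowest at 78.3 ± 5.28 and 76.2 ± 13.8 CPM per kb, also within their SDs. Under inflammation this order changed. Ctsc moved from rank 99 to rank 17 in CCR2+ve monocytes, and Lamp1 from rank 77 to rank 838.

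Summed over the 9 genes, these transcripts took 1.63 to 1.89% of all gene reads in resting CCR1/2+ve libraries and 2.15 to 2.42% in resting CCR2+ve libraries. The share was 3.05 to 3.38% in inflamed CCR1/2+ve libraries, 3.08 to 3.53% in inflamed CCR2+ve libraries and 0.215 to 0.257% in the libraries labelled inflamed CCR1. The ranges of the inflamed CCR1/2+ve and CCR2+ve libraries overlapped, and no other ranges did.

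**Figure D1:**
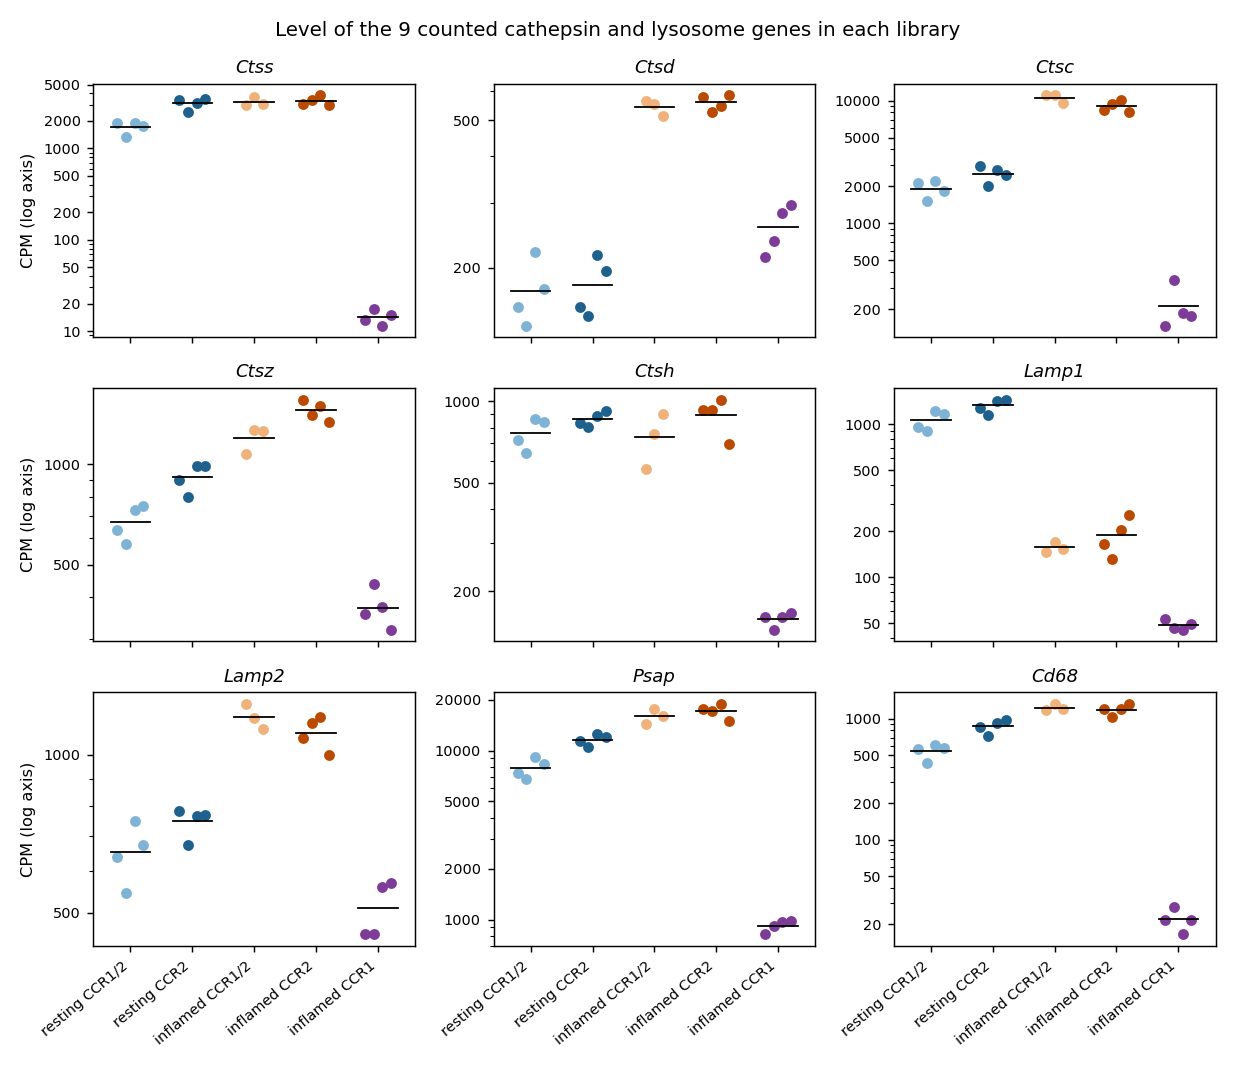
CPM of the 9 counted genes on a log axis, with 1 point per library, 1 colour per group and a black line at the group mean. Lamp1 was at 901 CPM or more in all resting libraries and at 254 CPM or less in all inflamed ones, while Ctsd and Ctsc of inflamed CCR1/2+ve and CCR2+ve libraries lay above those at rest.

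The first comparison asked how CCR1/2+ve monocytes differ from CCR2+ve monocytes at rest. Ctss, Cd68, Psap and Ctsz, or 4 of 9, had lower levels in CCR1/2+ve monocytes, none was higher, and 5 did not pass an adjusted p of 0.05. Over all 18652 genes tested, 8.44% were lower and 8.44% were higher. The median log2 fold change of the 9 genes was -0.32, and that of all genes was 0.03. With all 19 libraries in one fit, 1006 of 2546 called genes were higher, in place of 1575 of 3149, and the members called were again 4.

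Ctss showed the widest gap. Its levels were 1910.2, 1341, 1879 and 1767 CPM in resting CCR1/2+ve libraries and 3399, 2517, 3123 and 3513 CPM in resting CCR2+ve libraries. Every CCR1/2+ve library lay below every CCR2+ve library, and Ctss was 1.73-fold lower (log2 fold change -0.79, SE 0.12, adjusted p = 0.000896). Cd68, a heavily glycosylated endosomal and lysosomal membrane protein used as a macrophage marker, was at 563, 434, 612 and 573 CPM against 853, 721, 927 and 973 CPM. It too did not overlap between the groups and was 1.51-fold lower (log2 fold change -0.60, SE 0.11, adjusted p = 0.00230). Psap was at 7358, 6749, 9149 and 8365 CPM against 11439, 10480.1, 12555 and 12089 CPM, again without overlap. It was 1.398-fold lower (log2 fold change -0.48, SE 0.10, adjusted p = 0.00431). Ctsz, cathepsin Z or X, a carboxypeptidase, was at 635, 577, 729 and 748 CPM against 899, 797, 987 and 988 CPM. Ctsz was 1.30-fold lower (log2 fold change -0.37, SE 0.09, adjusted p = 0.0131), and these groups also stayed apart. The neutrophil and dendritic cell marker sums moved with this comparison, and their part in it was not tested.

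The other 5 genes overlapped between the resting populations. Ctsc, which activates the serine proteases of granules, had a log2 fold change of -0.32 (SE 0.13, adjusted p = 0.125), and Lamp1 one of -0.24 (SE 0.10, adjusted p = 0.115). These 2 genes passed once the replicate number was taken as a block (log2 fold change -0.32, adjusted p = 6.40e-05 for Ctsc and -0.25, adjusted p = 0.000751 for Lamp1), as the same-numbered resting libraries deviated together. Ctsc also passed without resting CCR2+ve replicate 2 (log2 fold change -0.41, adjusted p = 0.0367), and Lamp1 under DESeq2 (adjusted p = 0.0421). Over all genes 4785 were called with the block, 3474 without that replicate and 3964 under DESeq2, in place of 3149. For Lamp2, Ctsh and Ctsd the log2 fold changes were -0.12, -0.09 and 0.03, with 95% intervals from -0.30 to 0.05, from -0.26 to 0.07 and from -0.24 to 0.29.

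**Figure D2:**
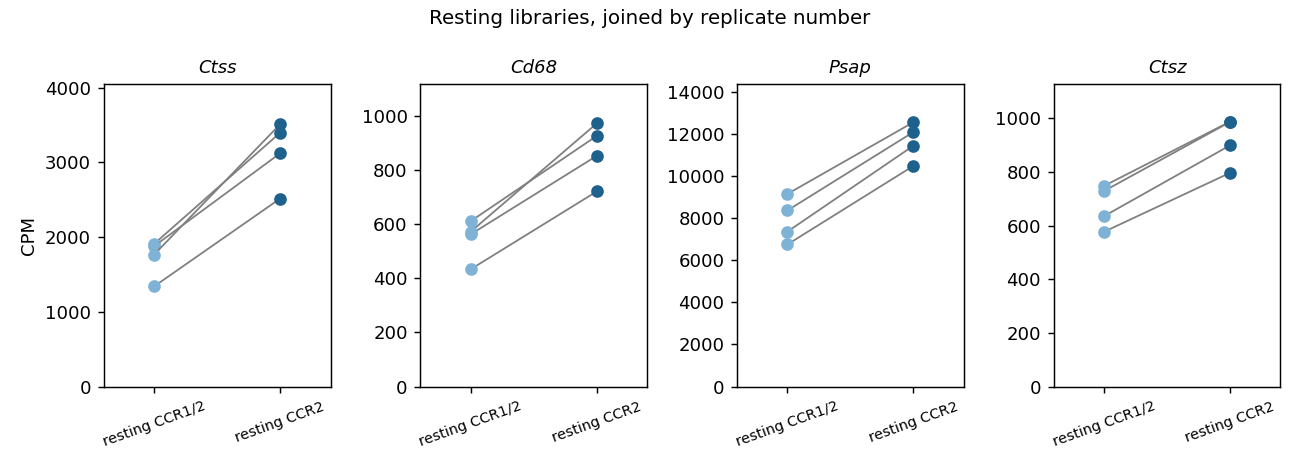
CPM of the 4 genes that were lower in resting CCR1/2+ve monocytes, from an axis starting at 0, with libraries of the same replicate number joined by a line. Every line rises from the CCR1/2+ve to the CCR2+ve library.

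Most of the members changed under inflammation. In CCR2+ve monocytes, 6 of the 9 genes rose (Ctsc, Ctsd, Ctsz, Lamp2, Psap and Cd68), Lamp1 fell, and Ctss and Ctsh did not pass the test. Over all genes 21.9% rose and 25.9% fell. In CCR1/2+ve monocytes 7 rose, the same 6 and Ctss, Lamp1 fell and Ctsh did not pass, against 20.6% of all genes that rose and 25.4% that fell. The median log2 fold change of the 9 genes was 0.49 for CCR2+ve cells and 0.78 for CCR1/2+ve cells, where that of all genes was -0.10 and -0.25. With all 19 libraries in one fit the latter was -0.12. After a correction for GC content the median of the 9 genes was 0.10 for CCR2+ve cells, with 4 higher and 1 lower, and 0.75 for CCR1/2+ve cells, with 7 higher and 2 lower. Under that correction the median of all genes was -0.17 and -0.34, and 3715 of 8846 and 3410 of 8578 called genes were higher. Whether resting and inflamed libraries were prepared or sequenced together was not given in the sources used here, so such a batch and inflammation cannot be told apart. The summed level of 14 tissue macrophage markers was 249.6 to 433 CPM in resting and 599 to 832 CPM in inflamed CCR1/2+ve and CCR2+ve libraries, and that of 8 B cell markers 593 to 1011 and 907 to 1689.6 CPM. The neutrophil marker sum in CCR1/2+ve libraries was 5754 to 9051 CPM at rest and 3623 to 4626 CPM when inflamed. The dendritic cell sum was 173 to 466 and 963 to 1211 CPM there, and the monocyte sum 33476 to 46732 and 54249 to 57952 CPM, again without overlap. In CCR2+ve libraries these 3 sums overlapped between resting and inflamed. Their part in the changes was not tested.

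Among the proteases, Ctsc rose furthest. It was at 2959.6, 1999, 2698 and 2466 CPM in resting and at 8337, 9317, 10138 and 8069.6 CPM in inflamed CCR2+ve libraries. In CCR1/2+ve monocytes it went from 2139.9, 1511, 2202 and 1843 CPM to 11063, 11038 and 9608 CPM. Each inflamed library lay above each resting one in either population, with increases of 3.37-fold (log2 fold change 1.75, SE 0.12, adjusted p = 1.76e-08) in CCR2+ve and 5.03-fold (log2 fold change 2.33, SE 0.12, adjusted p = 2.64e-08) in CCR1/2+ve monocytes. Ctsd, the aspartic protease cathepsin D, also rose in both. It was at 156, 148, 217 and 195 CPM in resting and 578, 528, 548 and 585 CPM in inflamed CCR2+ve libraries, and at 157, 139.6, 220.5 and 175 CPM in resting and 563, 552 and 515 CPM in inflamed CCR1/2+ve libraries. None of the resting libraries reached an inflamed one, and the increases were 2.99-fold (log2 fold change 1.58, SE 0.12, adjusted p = 4.31e-08) and 2.88-fold (log2 fold change 1.53, SE 0.12, adjusted p = 8.46e-07). In the annotation 34.4% of the Ctsd exon length is shared with Gm49369 on the same strand, which was listed at 0 in all libraries.

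Ctsz rose more modestly, from 899, 797, 987 and 988 to 1563, 1403, 1498 and 1343 CPM in CCR2+ve monocytes and to 1074, 1271 and 1254 CPM in inflamed CCR1/2+ve monocytes. The groups did not overlap within either population, and Ctsz was 1.51-fold (log2 fold change 0.59, SE 0.10, adjusted p = 0.000114) and 1.64-fold (log2 fold change 0.71, SE 0.10, adjusted p = 8.00e-05) higher. Ctss rose 1.71-fold in CCR1/2+ve monocytes (log2 fold change 0.78, SE 0.12, adjusted p = 0.000175), to 3019, 3621 and 3032 CPM, which overlapped the resting CCR2+ve libraries. In CCR2+ve monocytes Ctss was at 3081, 3384, 3827 and 2968 CPM when inflamed, overlapping the resting libraries, with a log2 fold change of 0.01 and a 95% interval from -0.22 to 0.24. Ctsh, an aminopeptidase among the cathepsins, overlapped between resting and inflamed libraries in both populations. Its log2 fold change was -0.02 in CCR2+ve (95% interval from -0.24 to 0.19) and -0.17 in CCR1/2+ve monocytes (95% interval from -0.46 to 0.12), and the latter passed after a correction for GC content (log2 fold change -0.37, adjusted p = 0.0459).

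The membrane proteins split. Lamp1 and Lamp2 are the most abundant glycoproteins of the lysosomal membrane and are close relatives, and their transcripts went in opposite directions. Lamp1 was at 1274, 1152, 1423 and 1447 CPM in resting and at 166, 131, 203 and 254 CPM in inflamed CCR2+ve libraries. In CCR1/2+ve monocytes it was at 964, 901, 1210.3 and 1168 CPM and then at 146, 170.3 and 154 CPM. No inflamed library came near a resting one, and Lamp1 fell 7.33-fold in CCR2+ve (log2 fold change -2.87, SE 0.18, adjusted p = 5.37e-09) and 7.37-fold in CCR1/2+ve monocytes (log2 fold change -2.88, SE 0.11, adjusted p = 5.22e-09). Lamp2, needed for lysosome fusion and chaperone-mediated autophagy, was at 783, 673, 765 and 769 CPM in resting and 1075, 1151, 1181 and 1000.3 CPM in inflamed CCR2+ve libraries. In CCR1/2+ve monocytes it was at 639, 545, 748 and 674 CPM and then at 1251, 1177 and 1121 CPM. The inflamed libraries were above the resting ones throughout, by 1.404-fold (log2 fold change 0.49, SE 0.09, adjusted p = 0.000442) and 1.66-fold (log2 fold change 0.74, SE 0.09, adjusted p = 3.595e-05).

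Lamp1 did not stand alone in its fall. Of 1751 genes at 100 CPM or more in both resting groups, 95 were more than 5-fold lower in all 3 inflamed groups, and Lamp1 and 1 of the other lysosomal genes were among them. The reverse condition was a mean of 100 CPM or more in all 3 inflamed groups, with both resting means more than 5-fold lower, and 2 genes met it. Both conditions include the libraries labelled inflamed CCR1, where the monocyte marker sum was low. For monocyte genes that makes the first condition easier to meet and the reverse one harder, so these counts cannot be compared. No count on the inflamed CCR1/2+ve and CCR2+ve groups alone is given here. Among the 95 were Fth1, the ferritin heavy chain, at 696 CPM or more in resting and 170 CPM or less in inflamed libraries, and Spi1, which encodes PU.1, at 467 CPM or more and 40.5 CPM or less. These 2 were named after their values were seen. Such a shared fall and a difference in library preparation cannot be told apart. In the annotation 9.31% of the Lamp1 exon length is shared with Grtp1 on the opposite strand.

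Psap and Cd68 rose in both populations. Psap was at 17599.7, 17118, 18918 and 14886 CPM in inflamed CCR2+ve libraries and at 14425, 17730.4 and 16089 CPM in inflamed CCR1/2+ve libraries. All of these exceeded the resting libraries, by 1.402-fold (log2 fold change 0.49, SE 0.10, adjusted p = 0.000571) and 1.87-fold (log2 fold change 0.90, SE 0.10, adjusted p = 1.60e-05). Cd68 was at 1204, 1029, 1199 and 1320.0 CPM in inflamed CCR2+ve libraries and at 1186, 1327 and 1195 CPM in inflamed CCR1/2+ve libraries. It was 1.31-fold higher in the former (log2 fold change 0.39, SE 0.11, adjusted p = 0.0115) and 2.08-fold higher in the latter (log2 fold change 1.06, SE 0.10, adjusted p = 5.02e-06). After a correction for GC content the increases in CCR2+ve monocytes were no longer called for Psap (log2 fold change 0.10, adjusted p = 0.344) or Cd68 (log2 fold change 0.06, adjusted p = 0.676), whereas those in CCR1/2+ve monocytes were.

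**Figure D3:**
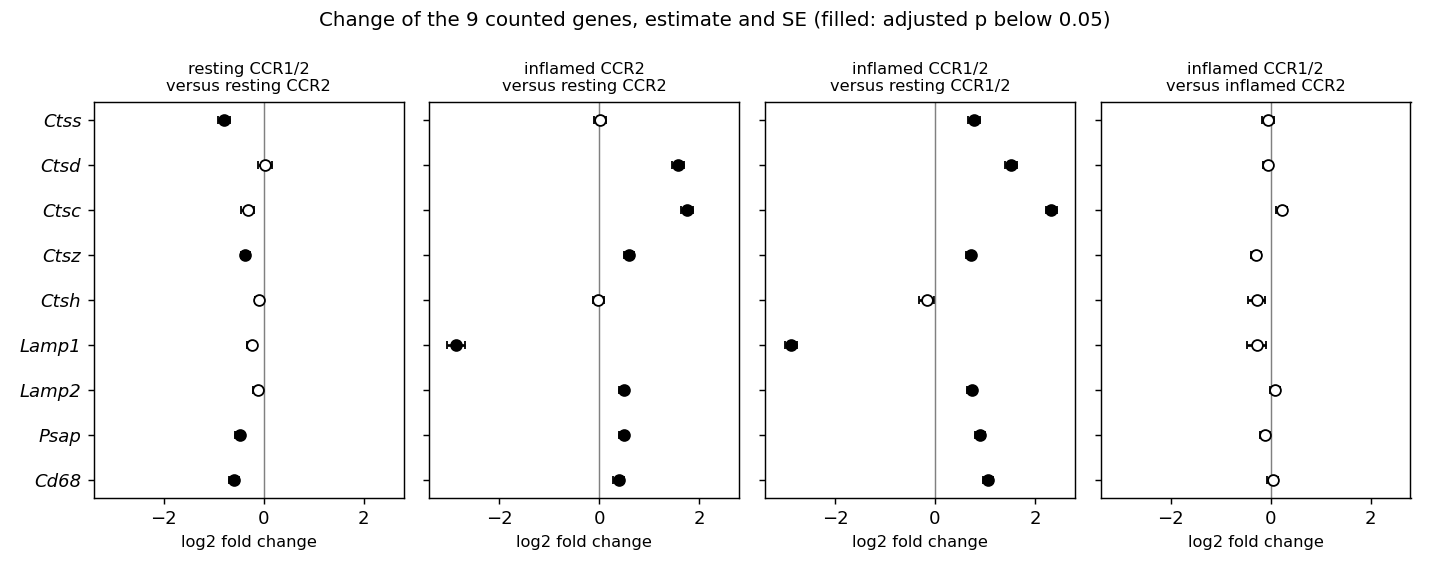
Log2 fold change of the 9 genes with its SE in 4 comparisons, where filled points passed an adjusted p of 0.05. Resting CCR1/2+ve monocytes lie at or below 0 but for Ctsd at 0.03, Lamp1 lies at -2.87 and -2.88 in the inflamed populations, and no point is filled between the inflamed populations.

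The difference between the populations in their response was tested as an interaction over 15 libraries. None of the 9 genes passed, where 0.397% of all genes did, and 4 of the 9 had an unadjusted p below 0.05. The log2 fold change of Ctss in CCR1/2+ve less that in CCR2+ve monocytes was 0.72 (SE 0.18, adjusted p = 0.0725), and that of Cd68 0.63 (SE 0.16, adjusted p = 0.0966). These 2 passed with the replicate block (0.75, adjusted p = 0.0176, and 0.65, adjusted p = 0.0143) and under DESeq2 (adjusted p = 0.00719 and 0.0129). They also passed without resting CCR2+ve replicate 2 (adjusted p = 0.0298 and 0.0410), and Cd68 without inflamed CCR2+ve replicate 4 (adjusted p = 0.0412). The replicate block joined resting and inflamed libraries by number alone, which nothing in the labels pairs, so its passes cannot decide the interaction. Over all genes 222, 534, 209 and 253 passed in these settings in turn, where 74 did in the main fit. With inflamed CCR1/2+ve replicate 3 left out, 0 genes passed. Ctss also passed without a filter on low counts (adjusted p = 0.0316), where 145 of 27598 genes did. Over the 20 alternatives the adjusted p ranged from 0.00719 to 0.259 for Ctss and from 0.0129 to 0.287 for Cd68.

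Between the inflamed populations no member passed the test. This held under edgeR and DESeq2, and 1 of the 9, Ctsz, had an unadjusted p below 0.05. Over all genes 0.123% were higher and 0.0643% lower in inflamed CCR1/2+ve monocytes. Ctsz was at 1074, 1271 and 1254 CPM in inflamed CCR1/2+ve libraries, below the 1343 to 1563 CPM of inflamed CCR2+ve libraries (log2 fold change -0.29, adjusted p = 0.421). The 4 genes that were lower in CCR1/2+ve monocytes at rest had log2 fold changes of -0.06 for Ctss, with a 95% interval from -0.28 to 0.17, 0.04 for Cd68, from -0.17 to 0.25, and -0.11 for Psap, from -0.32 to 0.10, besides that of Ctsz, from -0.50 to -0.08.

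The rest of the lysosome was followed through 115 further genes in 6 lists, of which 108 were tested. Ctsb and Ctsg were not analysed here, and Arsb, like Ctsl on chromosome 13, was listed at 0. Within 5 Mb of Ctsl, 87 of 110 protein-coding genes in the table were listed at 0 (79.1%), against 27.7% of all protein-coding genes in the table, so the 0 of Ctsl is given as listed and not as a level. Of the 108 genes, 30 were lower (27.8%) and 7 higher (6.48%) in resting CCR1/2+ve than in resting CCR2+ve monocytes. Over all genes 8.44% were lower and 8.44% higher. The median log2 fold change was -0.16, and 0.03 over all genes. Without resting CCR2+ve replicate 3 or 4 the number called was 24 or 22, in place of 37, and over all genes 2270 or 2190, in place of 3149. With the replicate block 42 were lower and 11 higher, and under DESeq2 36 and 10. Over all genes 4785 were then called with the block, 2315 of them higher, and 3964 under DESeq2, 1922 of them higher.

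In that resting comparison, 13 of the 30 lower genes were hydrolases. Among 35 hydrolases 1 was higher and 21 did not pass, and with the replicate block 20 were lower and 2 higher. Lgmn, the asparaginyl endopeptidase that processes cathepsins, was at 56.7 to 86.6 CPM against 128 to 192 CPM and 2.14-fold lower (adjusted p = 0.000279). The higher one was Gla, alpha-galactosidase A, by 1.38-fold (adjusted p = 0.0121). Of 6 other cathepsins 3 were lower, among them Ctso by 1.58-fold (adjusted p = 0.000666) and Ctse by 1.44-fold (adjusted p = 0.00439), and none was higher. Of 16 membrane proteins 6 were lower, with Laptm5 at 1.46-fold (adjusted p = 0.00339) and Laptm4a at 1.45-fold (adjusted p = 0.00425), and 1 was higher. That 1 was Cd63, a tetraspanin also found in granules, at 9.49 to 29.9 CPM against 1.45 to 4.63 CPM, or 6.61-fold higher (adjusted p = 0.00260). Cd63 averaged 2090.4 CPM in the libraries labelled inflamed CCR1.

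Inhibitors of cathepsins went the other way in part, with 3 of 10 higher and 1 lower in resting CCR1/2+ve monocytes. Of all genes 8.44% were higher and 8.44% lower there. Serpinb1a, an inhibitor of neutrophil serine proteases, was at 179 to 192 CPM against 83.4 to 117 CPM, 2.00-fold higher (adjusted p = 9.93e-05), and Cst7, cystatin F, an inhibitor that limits cathepsin C, was 3.37-fold higher (adjusted p = 0.00523). The lower one was Cst3, cystatin C, by 1.27-fold (adjusted p = 0.0128). The V-ATPase, the pump that acidifies the lysosome, had 3 of 17 subunit genes lower and none higher, with Atp6v0a2 and Atp6v1b2 both 1.26-fold lower (adjusted p = 0.0266 and 0.0421). Among 24 genes of biogenesis and sorting 4 were lower and 2 higher. Tfeb, the factor that drives lysosomal genes, was at 20.6 to 27.9 CPM against 39.7 to 47.9 CPM, 1.65-fold lower (adjusted p = 0.000368), and Flcn, a regulator of its location in the cell, was 1.48-fold lower (adjusted p = 0.000433). Its relative Tfec was 2.01-fold higher (adjusted p = 7.62e-05) and Lamtor5, part of the complex that anchors mTORC1 at the lysosome, 1.19-fold higher (adjusted p = 0.0230).

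Inflammation raised 49 of the 108 genes (45.4%) and lowered 23 (21.3%) in CCR2+ve monocytes, where 21.9% of all genes rose and 25.9% fell. It raised 52 (48.15%) and lowered 20 (18.5%) in CCR1/2+ve monocytes, against 20.6% and 25.4% of all genes. The medians were 0.25 and 0.36 on the log2 scale, against -0.10 and -0.25 over all genes. Among the hydrolases 23 of 35 rose in either population, while 7 fell among CCR2+ve cells and 5 among CCR1/2+ve cells. After a correction for GC content 41 of the 108 genes rose and 30 fell in CCR2+ve monocytes, and 45 and 23 in CCR1/2+ve monocytes. Over all genes that correction gave 3715 of 8846 called genes higher in CCR2+ve and 3410 of 8578 in CCR1/2+ve monocytes. In the main fit these were 4082 of 8921 and 3844 of 8586. Of the hydrolases 18 then rose and 7 fell in CCR2+ve monocytes, and 20 and 6 in CCR1/2+ve monocytes. The hydrolase median in CCR2+ve monocytes went from 0.67 to 0.35. Sgsh and Gaa, the enzymes for heparan sulfate and glycogen, rose 4.32-fold (adjusted p = 1.06e-08) and 3.36-fold (adjusted p = 9.21e-09) in CCR2+ve monocytes, where 21.6% of the Sgsh exon length is shared with Card14. In CCR1/2+ve monocytes Lgmn rose from 56.7 to 86.6 CPM at rest to 309.8 to 340.1 CPM, 3.88-fold (adjusted p = 1.91e-07), and the phospholipase Pla2g15 3.44-fold (adjusted p = 4.61e-08). Naglu and Plbd2 fell in both, with Naglu 3.67-fold lower in CCR2+ve (adjusted p = 2.26e-07) and 4.10-fold lower in CCR1/2+ve monocytes (adjusted p = 8.27e-07), and Plbd2 3.56-fold and 3.08-fold lower (adjusted p = 1.31e-08 and 3.28e-06).

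The V-ATPase genes rose in 9 of 17 cases for CCR2+ve cells and in 8 for CCR1/2+ve cells, with 2 and 1 lower. Atp6v1a rose 1.70-fold and 2.01-fold (adjusted p = 8.39e-06 and 1.40e-05), Atp6v0a1 2.56-fold in CCR2+ve (adjusted p = 5.18e-06) and Atp6ap1 2.13-fold in CCR1/2+ve monocytes (adjusted p = 9.94e-07). Atp6v0a2 fell 3.01-fold and 2.77-fold (adjusted p = 6.00e-08 and 4.25e-06), and Atp6v1b2 1.84-fold in CCR2+ve monocytes (adjusted p = 0.000330). Of 16 lysosomal membrane genes, 4 rose (25%) and 6 fell (37.5%) in CCR2+ve monocytes, where 21.9% and 25.9% of all genes did. The CCR1/2+ve population had 6 that rose (37.5%) and 4 that fell (25%), against 20.6% and 25.4%, and their median there, -0.11, turned to 0.02 with all 19 libraries in one fit.

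Among them, the chloride-proton exchanger Clcn7 rose 3.47-fold and 3.33-fold (adjusted p = 1.18e-08 and 1.99e-08), whereas its obligate partner Ostm1 fell 7.60-fold and 7.69-fold (adjusted p = 8.15e-10 and 8.05e-09). Ctns, the cystine exporter, rose 1.93-fold and 2.44-fold (adjusted p = 4.22e-05 and 4.78e-07), and Tmem192 fell 18.7-fold and 17.5-fold (adjusted p = 1.18e-11 and 3.17e-08). Of the other cathepsins, Ctsa, the protective protein of galactosidase and neuraminidase, rose 1.45-fold and 2.08-fold (adjusted p = 0.000855 and 3.53e-06). Ctse rose 1.47-fold in CCR1/2+ve monocytes (adjusted p = 0.00105), and Ctsf, at 3.21 CPM or less in every resting library, fell 18.1-fold and 53.3-fold (adjusted p = 7.10e-06 and 0.00113). In all, 1 of 6 rose and 1 fell in CCR2+ve monocytes, where 21.9% of all genes rose and 25.9% fell. The CCR1/2+ve population had 4 that rose and 1 that fell, against 20.6% and 25.4% of all genes.

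Sorting and biogenesis genes rose in 10 of 24 cases (41.7%) and fell in 6 (25%) in CCR2+ve monocytes, where 21.9% of all genes rose and 25.9% fell. The CCR1/2+ve population had 8 that rose (33.3%) and 5 that fell (20.8%), against 20.6% and 25.4% of all genes. Vps33a, a subunit of the tethering complexes that fuse endosomes with lysosomes, rose 2.39-fold and 2.48-fold (adjusted p = 3.16e-07 and 1.67e-06), Vps18 of the same complexes 3.07-fold in CCR2+ve (adjusted p = 1.71e-07) and Vps11 2.32-fold in CCR1/2+ve monocytes (adjusted p = 8.15e-07). Nagpa, which uncovers the mannose 6-phosphate tag of lysosomal enzymes, fell 6.72-fold and 6.05-fold (adjusted p = 6.29e-11 and 8.37e-09), and Rraga, a Rag GTPase, 6.58-fold and 6.03-fold (adjusted p = 2.02e-10 and 1.18e-08). Tfeb did not pass in either population, with log2 fold changes of 0.07 and 0.34 (SE 0.13 and 0.35).

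Cathepsin inhibitors rose in 2 of 10 cases (20%) and fell in 1 (10%) in CCR2+ve monocytes, where 21.9% of all genes rose and 25.9% fell. The CCR1/2+ve population had 3 that rose (30%) and 4 that fell (40%), against 20.6% and 25.4% of all genes. That balance turned with the scaling, to 4 higher and 2 lower under RLE size factors and with all 19 libraries in one fit, and to 2 and 2 under DESeq2. Cst3 fell 1.56-fold and 1.396-fold (adjusted p = 0.000227 and 0.00770), and Cst7 3.13-fold in CCR1/2+ve monocytes (adjusted p = 0.00757), while Serpina3g rose 2.24-fold there (adjusted p = 0.00565). Stfa3 also passed in CCR2+ve monocytes (adjusted p = 0.0194) at no more than 0.387 CPM in any of their libraries. Spint1 was counted in this list among those that rose in both populations, although it inhibits cell-surface serine proteases. It had no read in any resting library and was at 1.84 to 5.86 CPM in inflamed CCR1/2+ve and CCR2+ve libraries. Against a floor of 3 reads over the resting group it was at least 140-fold higher in CCR2+ve and at least 112-fold higher in CCR1/2+ve monocytes. Between the inflamed populations none of the 108 genes passed under edgeR, with 13 at an unadjusted p below 0.05, and under DESeq2 only Lgmn passed (log2 fold change -0.43, adjusted p = 0.0102). DESeq2 called 265 of all genes there, in place of 35.

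**Figure D4:**
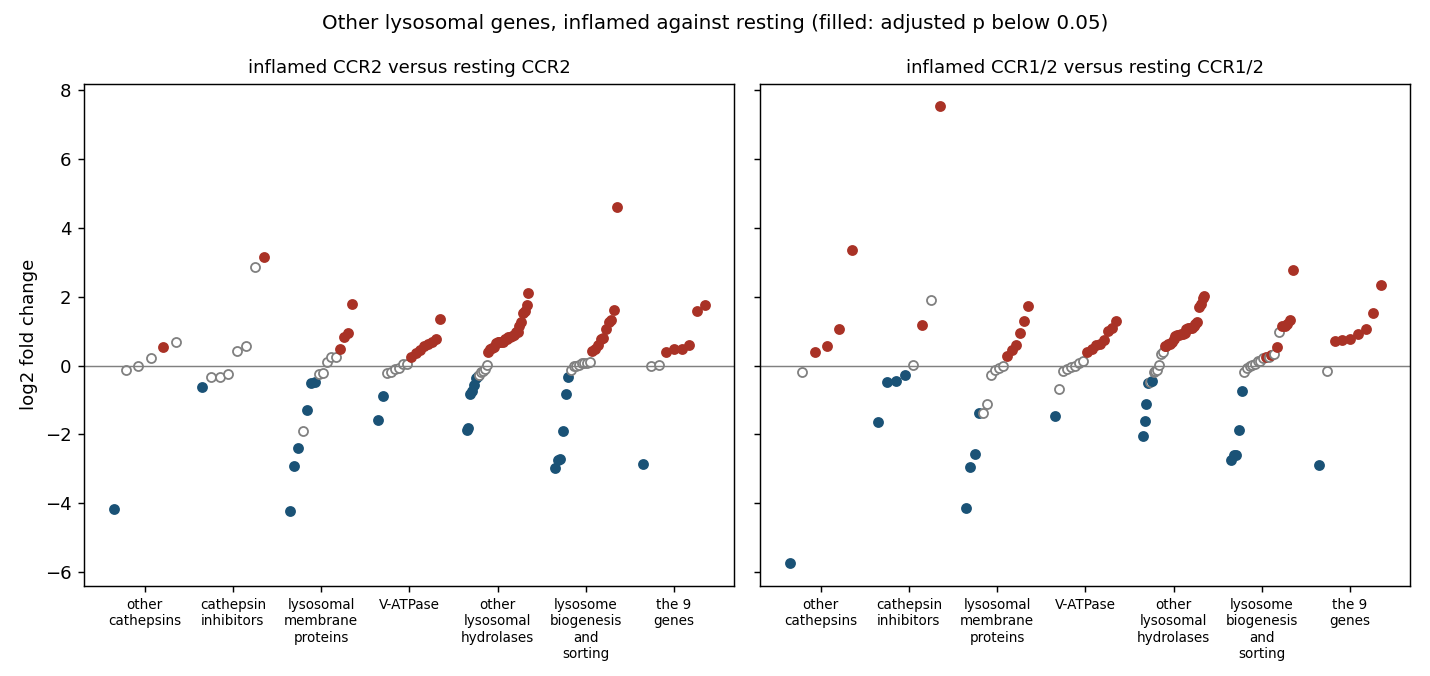
Log2 fold change of each tested lysosomal gene, inflamed against resting, in the 6 lists and for the 9 members, sorted within a list. Filled points passed an adjusted p of 0.05 (red higher, blue lower), and genes with no read in the whole resting group are not drawn. Hydrolases lie mostly above 0, with 23 of 35 filled red in each panel, while membrane proteins in CCR2+ve monocytes reach from -4.22 (Tmem192) to 1.79 (Clcn7).

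With a further requirement of a fold change of 2 or more in either direction, none of the 9 genes was called between the resting populations, where 4.25% of all genes were. Under inflammation 3 members (Ctsc, Ctsd and Lamp1) were called in CCR2+ve monocytes and 28.6% of all genes. In CCR1/2+ve monocytes 4 were called (Cd68 in addition) and 28.5% of all genes. Between the inflamed populations 0.145% of all genes met it and no member did.

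The libraries labelled inflamed CCR1 had less of all 9 transcripts than either inflamed monocyte population. Against inflamed CCR2+ve monocytes 22.7% of all genes were higher and 25.4% lower, and against inflamed CCR1/2+ve monocytes 20.2% and 23.0%. With a fold change of 2 or more as well, all 9 were called in both comparisons, against 31.3% and 27.7% of all genes. Ctss was at 13.3, 17.6, 11.5 and 15.1 CPM in these libraries, far below the 2968 CPM or more of the inflamed CCR2+ve libraries, and was 229-fold lower (log2 fold change -7.84, SE 0.17, adjusted p = 1.96e-15). Cd68, at 21.9, 27.9, 16.6 and 21.7 CPM, was 53.6-fold lower, Ctsc, at 148, 345, 186 and 176 CPM, 41.6-fold lower, and Psap, at 819, 913, 964 and 979 CPM, 18.6-fold lower (adjusted p = 9.40e-14, 4.23e-08 and 1.89e-14). The remaining genes lay closer to the monocytes. Ctsh was 5.60-fold, Ctsz 3.89-fold and Lamp1 3.84-fold lower, and Ctsd and Lamp2, at 214 to 296 and 455 to 570.0 CPM, 2.17-fold and 2.15-fold lower. Against inflamed CCR1/2+ve monocytes the same genes were between 2.12-fold (Ctsd) and 224-fold (Ctss) lower. Of the other lysosomal genes 70 were lower and 19 higher than in inflamed CCR2+ve monocytes, and 63 lower and 16 higher than in inflamed CCR1/2+ve monocytes. The marker sums given above moved with this comparison, and their part in it was not tested.

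The genes whose pattern over the 19 libraries lay nearest to each member were sought among 7684 genes at 10 CPM or more, by the root mean square difference of their centred log2 CPM. For Ctss the nearest was Ccr2, the receptor that defines the sorted cells, at a difference of 0.19 where the median gene was at 3.11, followed by Ifi204 and Clec4a3. Cd68 lay nearest to Cysltr1, Pld4 and Hacd4, and Psap to 1810043G02Rik, Hmox1 and Gm2a, of which Gm2a encodes another sphingolipid activator. Ctsc lay nearest to Trim30c, Tmem268 and Lrp1, Lamp1 to Serp1, Ap1s2 and Rala, and Ctsd to Apobr, Kpna6 and Tlr4. Ctsz had Akr1a1, Hsd17b4 and Csk, Ctsh had Blvrb, Selplg and Asah1, the acid ceramidase, and Lamp2 had Ebp, Cib1 and Snap23. Among the members themselves, Ctsz and Lamp2 were the most alike (0.34), then Lamp2 and Ctsd (0.50), and Ctss and Ctsd the least (3.04). These distances are descriptions over libraries of 5 groups and include the gap between the libraries labelled inflamed CCR1 and the others.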

How the data were processed

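Bulk RNA-seq of sorted bone marrow monocytes was analysed from 1 table of whole-number read counts per gene, deposited without normalization. Per the labels and the study's methods, RNA was made into libraries with a low-input kit and sequenced as read pairs, and reads were assessed with fastp, aligned with STAR 2.7.10a to GRCm38 (Ensembl release 91) and counted per gene by STAR, keeping uniquely mapped reads with at least 35 matched bases. The authors deposited these counts for 20 columns, of which 1 matched no labelled sample and was not used. The strand setting of the counting was not given in the sources used here, so genes that overlap on opposite strands cannot be told apart.

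The 18652 of 50854 genes whose reads averaged 1 or more per library entered a robust quasi-likelihood fit after TMM scaling (edgeR 4.0.16, R 4.3.3), made on the 2 groups of each comparison, and the interaction on 15 libraries. P-values were adjusted by Benjamini-Hochberg over all genes tested. CPM values were read counts scaled to the TMM library sizes of all 19 libraries. Positions, names and exon lengths came from GENCODE M21 (50744 of 50854 identifiers matched), promoter sequences from RefSeq on GRCm38.p6. Scripts were tested on simulated counts.

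The members and the lists were chosen with earlier results of these data known. Named lysosomal genes were, per list and direction, up to 2 with the smallest p among those called in the resting and the inflamed against resting comparisons, of which 1 is not reported here. Alternatives were DESeq2 1.42.0, RLE size factors, other filters on low counts, 19 libraries in one fit, the replicate number as a block, a fold cutoff and each library left out. A GC content correction was added after seeing the data. Nothing in the labels pairs the replicates. Same-numbered resting CCR1/2+ve and CCR2+ve libraries deviated together (correlations of 0.345 to 0.624 over 4 pairs, against -0.424 to 0.227 for other numbers), as did those of inflamed CCR1 and CCR2+ve (0.170 to 0.293), and no other comparison had every pair over 0.1. No 2 libraries of a group agreed within sampling noise.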

Additional observations from a re-analysis of the deposited data

Results flagged for a closer look

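Lamp2 in resting CCR2+ve monocytes was the only one of 36 combinations of a member and a group of 4 libraries in which 1 library stood off from the rest by Dixon's criterion. Replicate 2 was at 673 CPM and the nearest of the other 3 libraries at 765 CPM, a gap of 0.838 of the whole range. Chance alone flags about 1 in 20 such groups. Without that library the call for Lamp2 was unchanged in both comparisons of resting CCR2+ve monocytes.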

How the results depend on the processing

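Of 200 counts of called genes computed under an alternative, 183 stayed within 1.5 times the value reported and 17 did not. Of 963 values for single members, 948 kept their side of the threshold, 2 lost the call and 13 gained it. A change of direction was counted only where a value passed the test, and there were 0 of these. Some values near 0 that did not pass changed sign. That of Ctsd at rest, a log2 fold change of 0.03, ranged from -0.10 to 0.12. With a fold change of 2 or more required as well, the members called were 0 in the resting comparison, 3 in inflamed against resting CCR2+ve and 4 in inflamed against resting CCR1/2+ve monocytes. Of the 108 other lysosomal genes 4, 28 and 40 were called there, beside 4.25%, 28.6% and 28.5% of all genes. At rest and for CCR2+ve cells these counts came near the share of all genes. For inflamed CCR1 57 were called against CCR2+ve and 49 against CCR1/2+ve, beside 31.3% and 27.7% of all genes. With libraries left out in turn, the members called ranged from 4 to 5 in the resting comparison and from 0 to 2 for the interaction, and the other lysosomal genes from 22 to 38 in the resting comparison. Over all genes the calls then ranged from 2190 to 3474 in the resting comparison and from 0 to 253 for the interaction. The cause of these moves was not tested.

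DESeq2 called 2 members for the interaction (Ctss and Cd68) and 1 other lysosomal gene between the inflamed populations, and no filter on low counts gave 1 member for the interaction. Over all genes DESeq2 called 534 for the interaction and 265 between the inflamed populations, in place of 74 and 35. With the replicate number as a block, 2 members passed the interaction (Ctss, 0.75, adjusted p = 0.0176, and Cd68, 0.65, adjusted p = 0.0143) and 1 other lysosomal gene passed between the inflamed populations (Serpinb1a, log2 fold change 0.74, adjusted p = 0.0118). Over all genes the block called 222 in each. The interaction includes the resting libraries, whose same-numbered pairs deviated together (0.345 to 0.624). Its block also joined resting with inflamed libraries by number alone, so its passes cannot decide the interaction. Where comparisons shared only a number, same-numbered libraries correlated at -0.312 to 0.253 for inflamed against resting CCR2+ve, 0.076 to 0.205 for CCR1/2+ve, -0.322 to 0.587 between the inflamed populations and -0.329 to 0.170 for inflamed CCR1 against CCR1/2+ve. Apart from these and from Ctsc and Lamp1 at rest, the block changed no call of a member. The median of the cathepsin inhibitors under inflammation, 0.49 for CCR2+ve and 0.59 for CCR1/2+ve cells, turned to -0.28 and -0.29 with edgeR's filterByExpr, which leaves fewer genes. Depth limits Ctsf and Stfa3, which were at a few CPM or less.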
